A study of Mus musculus with 6 samples.

Results

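Group-housed (GH) males of 2 cohorts were compared by snRNA-Seq of the prelimbic cortex (PL), the medial prefrontal region where competitive social behaviour is processed. The comparison held the 4 GH libraries of the 6 in the series, Run GH and Sed GH of cohort 1 (*dataset 1*) and Run GH and Sed GH of cohort 2 (*dataset 2*), with 29067 of the 42595 nuclei kept, and each cohort 2 library was paired with the cohort 1 library of the same maternal environment. All mice were C57BL/6 males, and each library was made from the pooled PL of 3 males from different mothers. Run males were raised from P2 to weaning at P21 by dams with a running wheel in the cage, and Sed males by dams in standard cages. Cohort 1 males had gone through behavioural tests, held ranks at the top or the bottom of their own group, and gave nuclei on the day after their last tube test, in which mice compete for passage. Cohort 2 males were never tested. The labels give the age as P21, whereas the study describes adults. The other 2 libraries, from socially isolated (SI) males of cohort 2, enter the clustering and 1 alternative fit, and are otherwise given only as values. Cohort, prior testing, dataset and sequencing depth changed together between the sides, so that their parts in any difference cannot be told apart. With 2 libraries a side, a p-value measures the spread between these pooled libraries, which the test in part shares across genes.

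The PL holds layered excitatory pyramidal neurons, GABAergic interneurons, of which the parvalbumin (PV) class controls pyramidal output, and glia. A nucleus carries mostly unspliced, long transcripts and RNA retained there, such as *Malat1*, while messages for ribosomal proteins, respiratory enzymes and the mitochondrial genome lie chiefly in the cytoplasm, and some of that RNA floats free in every droplet. Neuronal activity switches on immediate early genes and, later, genes for secreted peptides and synaptic proteins. The circadian clock runs on CLOCK and ARNTL (or NPAS2 and ARNTL), which drive the Per, Cry and Nr1d genes through E-box sequences. PER and CRY repress that drive, and the NR1D and ROR nuclear receptors set the level of *Arntl*. Glucocorticoids act through *Nr3c1* on targets such as *Fkbp5* and *Zbtb16*.

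The cohort 2 libraries were the shallower side. The files held 159049013 and 188952936 UMIs for Run GH and Sed GH of cohort 1 and 62273299 and 19134955 for those of cohort 2. The kept nuclei numbered 8163, 5142, 9936 and 5826 in the same order, with median UMIs of 5586, 6250, 3397 and 1637. They held 32.9, 19.0, 61.9 and 58.6% of the UMIs. The UMIs summed in pyramidal neurons were 43068770, 30417788, 31672204 and 9670713, and so did not follow the order of the totals. Background droplets, those too small to be nuclei, held a median of 1108 and 1256 UMIs in cohort 1 and 260.0 and 81.0 in cohort 2. Sed GH of cohort 2 was thus the shallowest library. Any 2 of the 4 libraries shared 5 to 22 barcodes. The median share of mitochondrially encoded UMIs was 0.0336 and 0.0136% in cohort 1 and 0.328 and 0.109% in cohort 2. No member of the sex-check list was called in any class by edgeR, where at most 2 of its genes had an unadjusted p under 0.05, or by DESeq2.

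The cohorts held the same cell classes, and several shares stood apart. Clusters were named from marker genes, so that each class is a marker-based, "-like" class, written below without the suffix. Astrocytes, which clear glutamate and feed neurons, made up 5.02 and 3.56% of nuclei in Run GH and Sed GH of cohort 1 and 3.18 and 1.54% in cohort 2. Microglia, the resident macrophages, were at 0.980 and 0.720% in cohort 1 and 1.99 and 1.37% in cohort 2. Neither class overlapped between cohorts, with Clopper-Pearson 95% intervals, which cover counting error only, of 3.07 to 4.10% for the lower cohort 1 astrocyte share and 2.84 to 3.54% for the higher cohort 2 share, so that these 2 intervals overlapped. The naming thresholds, set after the clusters were seen, kept out of the astrocytes a cluster led by *Mertk*, *Slco1c1* and *Slc1a3*, with 0.674 and 0.331% of nuclei in cohort 1 and 1.02 and 0.927% in cohort 2. With it the astrocyte shares were 5.70 and 3.89% against 4.20 and 2.47%, and the cohorts overlapped. Near-projecting pyramidal neurons (a *Tshz2* class of layer 5) were also apart, at 2.55 and 2.70% against 3.81 and 3.74%, as were PV interneurons at 3.79 and 3.29% against 4.45 and 3.96%, SST interneurons, NPY and Lamp5 interneurons, and vascular cells at 0.490 and 0.661% against 0.332 and 0.120%. The vascular share of Sed GH of cohort 2 rested on 7 nuclei, and that of Run GH of cohort 2 alone also lay under both of cohort 1. In all, 7 of 14 classes did not overlap, 5 higher and 2 lower in cohort 2. Of 8 alternative settings, vascular cells stayed apart in 8, near-projecting neurons and microglia in 7, astrocytes and SST interneurons in 6, PV interneurons in 5 and NPY and Lamp5 interneurons in 4. Astrocytes overlapped with no upper limit on genes and with no mitochondrial limit. These limits also acted unevenly. The limit of 4000 genes left out 7.29 and 14.0% of nuclei in cohort 1 and 0.66 and 0.0343% in cohort 2. The mitochondrial limit left out 0.0 and 0.0% in cohort 1 and 2.84 and 0.0172% in cohort 2. An exact permutation test of 2 libraries against 2 cannot give a two-sided p below 0.333, so no share was tested. The 8 pyramidal markers fixed for the class summed to 4697 and 4427 CPM in the pyramidal neurons of cohort 1 and 3803 and 3879 CPM in those of cohort 2, and none was at 0 in all 4 libraries. Such sums over marker lists are CPM of plain UMI totals throughout. The UMI minimum for a nucleus, set in each library, ranged from 620.0 in Sed GH of cohort 2 to 3156 in Sed GH of cohort 1, so that it differed between the cohorts. When as many of the largest barcodes as the study kept replaced it, microglia and NPY and Lamp5 interneurons overlapped, and pyramidal neurons and their layer 2/3 class came apart. With nuclei of at least 1000 genes, near-projecting neurons and the PV, SST, and NPY and Lamp5 interneurons overlapped, and pyramidal neurons and oligodendrocyte precursors came apart.

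Among pyramidal neurons, 75.8 and 79.2% of nuclei in cohort 1 and 77.6 and 84.1% in cohort 2, the layers did not shift one way. Layer 6 neurons, which project to the thalamus, rose from 7.22 to 13.8% in the Run pair and fell from 18.1 to 9.82% in the Sed pair. Layer 2/3 neurons, which project within the cortex, moved the opposite way, from 23.5 to 20.9% and from 19.8 to 23.1%. Oligodendrocytes overlapped between cohorts, at 1.16 and 0.836% against 1.31 and 0.790%.

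**Figure D1:**
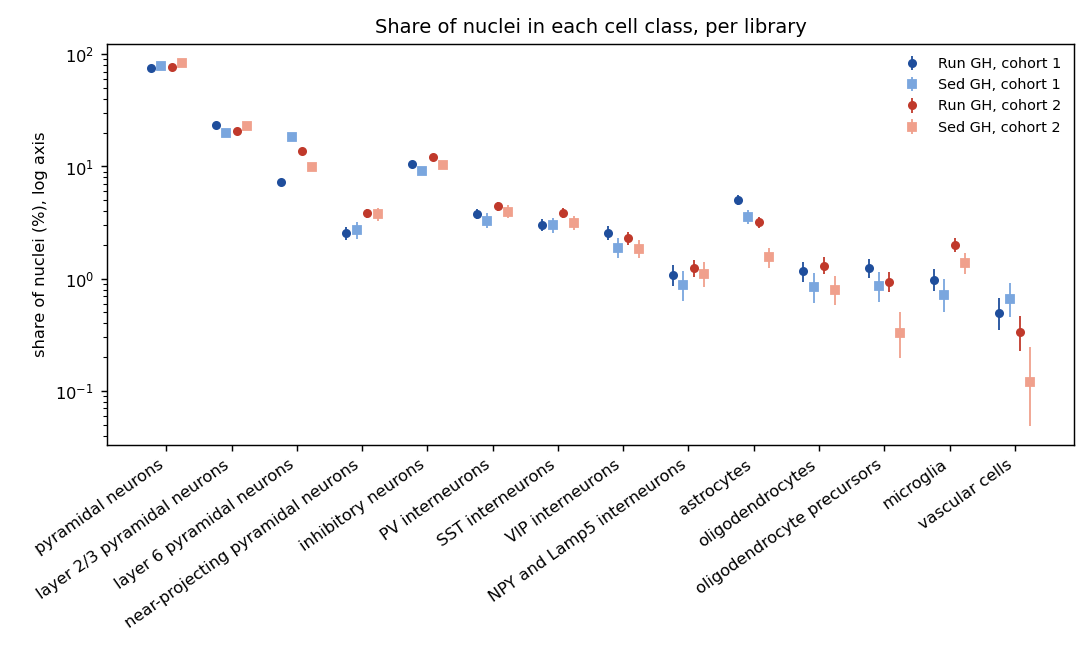
Share of nuclei (%, log axis) in each of 14 marker-based classes, in the 4 GH libraries. Points are libraries and bars are Clopper-Pearson 95% intervals (counting error only). Astrocytes and vascular cells sit lower in both cohort 2 libraries, microglia and near-projecting neurons higher, and layer 6 neurons cross between the Run and Sed pairs.

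UMI counts were summed per library and class and compared between cohorts with edgeR's quasi-likelihood test, with maternal environment as the pairing term, which left 1 residual degree of freedom. The test moves each gene's spread toward that shared by genes, with prior degrees of freedom of 4.16 in pyramidal neurons and 46.4 in PV interneurons. In astrocytes the prior was infinite, so that p-values there rest on the shared spread and not on the spread of each gene. The adjusted p is Benjamini-Hochberg over all genes tested in the class, called below 0.05, and log2 differences are cohort 2 minus cohort 1. Each SE is the size of the log2 difference divided by the square root of the test's F statistic. It thus also rests on the shared spread and is not the gene's own error between libraries. Values of single genes per library are CPM scaled to trimmed-mean (TMM) library sizes, Run GH before Sed GH. Pyramidal neurons had 2154 genes higher and 1551 lower in cohort 2 of 17430 tested, 21.3% in all (12.4% higher and 8.9% lower). Layer 2/3 neurons had 2392 and 2075 of 13936 (32.1%, being 17.2% and 14.9%), and layer 6 neurons 1467 and 1077 of 12677 (20.1%, being 11.6% and 8.5%). Inhibitory neurons had 1716 and 1199 of 12790 (22.8%, being 13.4% and 9.37%) and PV interneurons 1458 and 1008 of 9894 (24.9%, being 14.7% and 10.2%). Astrocytes had 1390 and 1066 of 8582 (28.6%, being 16.2% and 12.4%). The smaller glial classes had fewer calls, 275 and 53 of 5199 genes in oligodendrocytes (6.31%, being 5.29% and 1.02%) and 229 and 86 of 5194 in microglia (6.06%, being 4.41% and 1.66%). The called genes of pyramidal neurons differed by a median size of 1.13 on the log2 scale, and all 3705 had the same sign in the Run pair and in the Sed pair. The same sign was found for 2455 of 2466 calls in PV interneurons and 2385 of 2456 in astrocytes. The paired fit favours genes whose pairs agree, so that this is no separate support. The median over all genes tested was within 0.01 of 0 in each class. The same fits called 0 genes by maternal environment in 6 of the 8 classes, 8 in PV interneurons and 10 in astrocytes. Calls in the smaller glial classes were unsteady. Over the alternatives they ran from 22 to 939 in microglia, and in oligodendrocytes they fell from 328 to 1 when nuclei marked by a doublet caller were left out.

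Counts of calls turned on single libraries. Fits without 1 library hold the cohort term alone, and are set beside the same unpaired fit of all 4 libraries. That fit called 5824 genes in pyramidal neurons, 5295 in layer 2/3 neurons, 3820 in layer 6 neurons and 3909 in inhibitory neurons. Without Sed GH of cohort 1 these counts were 1723, 2915, 2195 and 2222, and without Run GH of cohort 1 those of pyramidal and layer 2/3 neurons were 2748 and 3420. Without Run GH of cohort 2 they were 1734 in layer 6 and 2008 in inhibitory neurons. The unpaired fit called 2484 genes in PV interneurons, 2600 in astrocytes, 379 in oligodendrocytes and 520 in microglia, and without Run GH of cohort 2 it called 979, 652, 78 and 30. Without Sed GH of cohort 1 the counts were 1581 in PV interneurons, 1470 in astrocytes and 244 in microglia. Without Sed GH of cohort 2, the shallowest library, each count was above that of the unpaired fit by less than 1.5 times, as with 6448 in pyramidal neurons. Scaling by library totals in place of TMM moved the median of all genes by up to 0.18 (layer 2/3 neurons) and the share of higher genes among the calls of pyramidal neurons from 58.1 to 75.7%, of layer 2/3 neurons from 53.5 to 69.4% and of layer 6 neurons from 57.7 to 72.8%.

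The differences moved with the profile of the background droplets. Across genes with at least 200 counts, the log2 difference in pyramidal neurons had a Pearson correlation of 0.62 with the log2 ratio of the same gene between the background droplets of the cohorts, and the value was 0.65 in inhibitory neurons, 0.71 in astrocytes, 0.40 in oligodendrocytes and 0.45 in microglia. The Run pair and the Sed pair correlated at 0.74 in pyramidal neurons. These are descriptions across genes, which are not replicates, and nuclei and background come from the same libraries. When the background profile was subtracted from each library's sums, the calls fell to 2414 in pyramidal neurons, 907 in layer 6 neurons, 633 in astrocytes and 14 in oligodendrocytes. Background ratios are given with the gene groups below, as log2 cohort 2 over cohort 1 in the Run and Sed pairs, for single genes or as a list's median.

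The median difference fell with a gene's span. In pyramidal neurons the 1324 protein-coding genes that span under 5 kb (GENCODE M21 annotation of GRCm38, introns included) had a median log2 difference of 1.23, and 44.7% of them were called higher and 0.680% lower. The median passed through -0.09 at 20 to 50 kb and reached -0.48 at 200 to 500 kb, where 30.9% of 742 genes were called lower. Astrocytes had the wider range, from 2.15 for 398 short genes to -1.08 for 211 genes over 500 kb, of which 78.2% were called lower. In oligodendrocytes the medians ran from 2.20 under 5 kb to -0.18 over 500 kb, and in microglia from 2.16 to -0.23. As a description across protein-coding genes with at least 200 summed counts, which share the 4 libraries, Spearman's rho of span and difference was -0.54 over 11614 genes in pyramidal neurons, -0.52 over 7084 genes in inhibitory neurons and -0.59 over 2656 genes in astrocytes, but -0.26 over 1169 genes in microglia and -0.10 over 869 genes in oligodendrocytes. Without the ribosomal protein, respiratory and mitochondrial lists the short genes of pyramidal neurons kept a median of 1.14. In background droplets the same short genes had medians of 2.18 and 2.52 in the Run and Sed pairs, and genes over 500 kb -1.53 and -2.21. The order by span thus held in droplets without nuclei too, and its part in the results below was not tested.

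**Figure D2:**
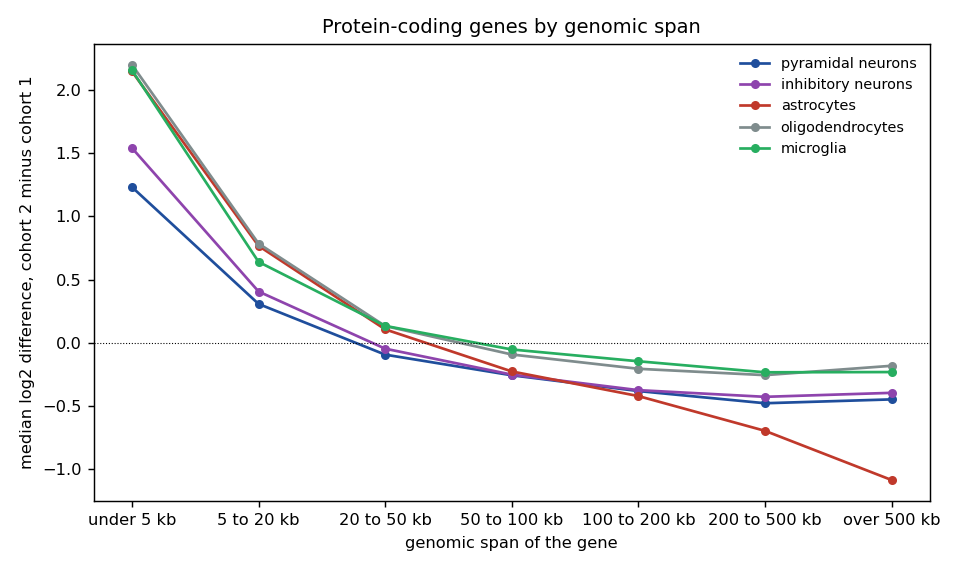
Median log2 difference between cohorts (vertical axis) of protein-coding genes grouped by genomic span (horizontal axis), in 5 cell classes. Each line is a class. All 5 lines fall from the shortest genes to those of 200 to 500 kb, from 1.23 to -0.48 in pyramidal neurons, and that of astrocytes falls on to -1.08 over 500 kb.

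Messages of the translation machinery and of respiration had list medians well above that of all genes tested. The 79 genes for cytoplasmic ribosomal proteins took 0.0638 and 0.0598% of the UMIs of pyramidal neurons in cohort 1 and 0.341 and 0.257% in cohort 2. Of these, 76 of 79 rose, with a median log2 difference of 2.28 beside 0.00 over all genes tested, and 77 of 79 rose in inhibitory neurons (median 2.36), 72 of 72 in astrocytes (2.75), 32 of 46 in oligodendrocytes (2.49) and 21 of 27 in microglia (2.64), beside 12.4, 13.4, 16.2, 5.29 and 4.41% of all genes called higher in these classes. DESeq2 called 76, 68, 48, 0 and 1 in these 5 classes, so that the calls in oligodendrocytes and nearly all in microglia rest on edgeR. In pyramidal neurons *Rpl37*, of the large subunit, was at 7.24 and 5.51 CPM in Run GH and Sed GH of cohort 1 and 59.5 and 52.0 CPM in those of cohort 2 (log2 difference 3.13 ± 0.17 (SE), adjusted p = 0.00741). The cohorts did not overlap. In background droplets *Rpl37* differed by 4.60 in the Run pair and 6.12 in the Sed pair. After background subtraction, 23 of the 79 were still called higher in pyramidal neurons and the median was 1.02, while 0 of the 4 left to test were called in oligodendrocytes. Without Run GH of cohort 2, 27 of 68 were called in astrocytes, beside 72 of 72 in the unpaired fit of all 4 libraries. The list had background medians of 4.25 and 5.37. Ribosomal protein genes have many processed pseudogenes, so that the split of reads among single members is uncertain.

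Nuclear genes for oxidative phosphorylation were higher too, beside the same shares of all genes, with 61 of 74 higher in pyramidal neurons (median 1.68), 62 of 74 in inhibitory neurons (1.77), 59 of 67 in astrocytes (2.07), 18 of 31 in oligodendrocytes (2.02) and 8 of 21 in microglia (1.91). DESeq2 called 61, 43, 21, 0 and 0. In pyramidal neurons *Cox8a*, a subunit of cytochrome c oxidase, was at 17.2 (Run GH) and 11.7 (Sed GH) CPM in cohort 1 against 108 and 88.7 CPM in cohort 2 (log2 difference 2.78 ± 0.16 (SE), adjusted p = 0.00741). *Ndufb11*, of complex I, was at 1.07 and 1.06 CPM in cohort 1 and 14.99 and 11.99 CPM in cohort 2 (log2 difference 3.66 ± 0.26 (SE), adjusted p = 0.00741). Both cohort 2 libraries lay far above both of cohort 1 for either gene. Transcripts of the mitochondrial genome took 0.0318 and 0.0135% of UMIs of pyramidal neurons in cohort 1 and 0.289 and 0.111% in cohort 2, and 10 of 13 were called higher (median 2.55), beside 12.4% of all genes. *mt-Co2*, a cytochrome c oxidase subunit, was at 28.0 and 8.66 CPM in cohort 1 and 383 and 157 CPM in cohort 2 (log2 difference 3.97 ± 0.17 (SE), adjusted p = 0.00741), the higher value on each side being the Run library. *mt-Atp8*, an ATP synthase subunit, was the exception of the list, at 7.39 and 6.64 CPM in cohort 1 and 2.60 and 2.44 CPM in cohort 2 (log2 difference -1.48 ± 0.27 (SE), adjusted p = 0.024). Background subtraction left 23 of 74 respiratory genes called (median 0.75) and 7 of the 11 mitochondrial genes that could be tested (median 2.64). In oligodendrocytes 0 of 7 respiratory genes were called after it. Without Sed GH of cohort 1, 6 of 13 mitochondrial genes were called higher in pyramidal neurons, beside 10 of 13 in the unpaired fit of all 4 libraries, and without Run GH of cohort 2, 11 of 65 respiratory genes in astrocytes, beside 60 of 67. The background medians were 3.83 and 4.74 for the respiratory list and 4.06 and 4.61 for the mitochondrial one.

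Chaperone and ubiquitin genes were higher as well. Of the list, 11 of 17 were higher in pyramidal neurons (median 1.11), 11 of 15 in inhibitory neurons (1.05) and 10 of 13 in astrocytes (1.80), beside 12.4, 13.4 and 16.2% of all genes tested, and DESeq2 called 11, 4 and 5. *Ubb*, a polyubiquitin gene that stress induces, led the genes called higher in every class, and in pyramidal neurons it was at 12.1 (Run GH) and 7.29 (Sed GH) CPM in cohort 1 against 153 and 86.6 CPM in cohort 2 (log2 difference 3.62 ± 0.15 (SE), adjusted p = 0.00741). *Hspa8*, the constitutive HSC70 chaperone, was at 27.7 and 21.4 CPM in cohort 1 and 116 and 86.5 CPM in cohort 2 (log2 difference 2.04 ± 0.14 (SE), adjusted p = 0.00741). *Hsp90ab1* was at 51.9 and 48.5 CPM in cohort 1 and 154 and 151 CPM in cohort 2 (log2 difference 1.61 ± 0.13 (SE), adjusted p = 0.00815). The background ratios were 5.30 and 6.81 for *Ubb* and 4.11 and 5.39 for *Hspa8*, and after background subtraction 3 of 15 list genes were called higher and 1, *Hsph1*, lower (-1.04, adjusted p = 0.0271). Of the list of abundant cytoplasmic neuronal messages, 15 of 25 were higher in pyramidal neurons, again beside 12.4% of all genes, among them *Fth1* (ferritin heavy chain) at 2.89 and *Tmsb4x* (thymosin beta 4) at 1.95, while *Camk2a*, a kinase of the postsynaptic density, was at -0.51 (adjusted p = 0.0632).

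**Figure D3:**
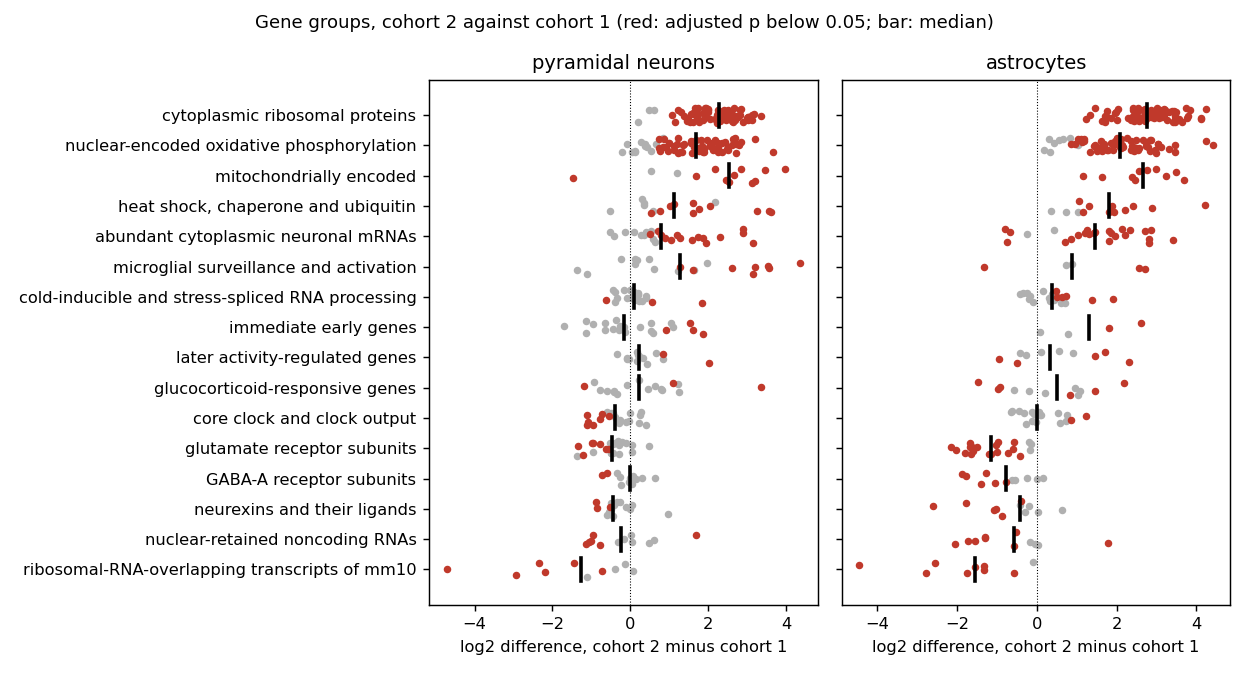
Log2 difference between cohorts (horizontal axis) of each gene of 16 lists (rows) in pyramidal neurons (left) and astrocytes (right). Each point is a gene, red where the adjusted p was below 0.05, and the bar is the list's median. Ribosomal protein and respiratory genes lie to the right in both panels, glutamate receptor genes to the left, further so in astrocytes.

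The 8 classes share nuclei, since layer 2/3 and layer 6 neurons are part of the pyramidal neurons and PV interneurons part of the inhibitory neurons. Of 4351 genes tested in all 8 classes, 104 were called higher in every class and 11 lower. With other processing the counts of both were larger or smaller. They were 196 and 26 with all 6 libraries, 164 and 19 with library totals, 166 and 28 with no upper limit on genes per nucleus and 94 and 18 with no filter on low counts. They were 52 and 7 with the largest barcodes, 23 and 5 with the cohorts clustered apart, 10 and 4 with nuclei thinned to 1000 UMIs, 8 and 1 with nuclei of at least 1000 genes, 8 and 1 after background subtraction, 6 and 3 by DESeq2 and 0 and 1 without marked doublets. The fit without the pairing gave 141 and 16, and beside it 74 and 16 and 72 and 8 without Run GH or Sed GH of cohort 1, 3 and 2 without Run GH of cohort 2 and 177 and 19 without Sed GH of cohort 2. The higher ones with the largest differences were *Ubb*, *mt-Co2*, *mt-Co3*, *Pebp1* (a kinase inhibitor), *Fau*, *Gapdh* (glycolysis), *Rps21*, *Rpl9*, *Cox8a* and *Rpl37*. The lower ones included *Gm42418*, *AY036118*, *Cmss1*, *Gm26917* and *Lars2*, all in the list of transcripts that overlap ribosomal RNA in mm10, *Taco1* (a mitochondrial translation factor), *Sez6l*, *Elavl3* (a neuronal RNA-binding protein), *Cux2* (a layer 2/3 transcription factor) and *Plekha6*. In pyramidal neurons *Gm42418* was at 6362 (Run GH) and 9282 (Sed GH) CPM in cohort 1 against 239 and 359 CPM in cohort 2 (log2 difference -4.71 ± 0.18 (SE), adjusted p = 0.00741). It fell by 4.45 in astrocytes and by 5.23 in microglia on the log2 scale. Of the 10 ribosomal-RNA-overlapping transcripts tested, 6 were lower in pyramidal neurons (median -1.27), beside 8.9% of all genes, and 5 of the 10 after background subtraction. In background droplets *Gm42418* took 3.59 and 4.34% of UMIs in cohort 1 and 0.271 and 0.549% in cohort 2. *Cux2*, at 443 and 508 CPM in cohort 1 and 148 and 209 CPM in cohort 2 (log2 difference -1.43 ± 0.15 (SE), adjusted p = 0.0103), differed by -1.32 and -1.22 in background droplets as well.

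RNA retained in the nucleus did not move as one group. *Malat1*, a long noncoding RNA of nuclear speckles, took 2.72 and 3.05% of the UMIs of pyramidal neurons in cohort 1 and 9.30 and 11.3% in cohort 2 (log2 difference 1.68 ± 0.24 (SE), adjusted p = 0.0162). It was higher in all 8 classes, by 1.74 in inhibitory neurons, 1.78 in astrocytes and 1.62 in microglia. In background droplets it took 3.92 and 3.16% of UMIs in cohort 1 and 9.15 and 14.5% in cohort 2, a rise of 1.22 and 2.20 on the log2 scale. Another 5 members of the list of 12 fell in pyramidal neurons, beside 8.9% of all genes. *Kcnq1ot1*, an imprinted antisense RNA, was at 941 and 1099 CPM in cohort 1 and 426 and 499 CPM in cohort 2 (log2 difference -1.14 ± 0.13 (SE), adjusted p = 0.0126), with no overlap and background ratios of -1.25 and -1.80. *Rian*, *Mirg*, *Snhg14* and *Miat*, of which the first 2 come from the imprinted *Meg3* region, fell by 0.96, 1.06, 0.78 and 1.01 on the log2 scale, whereas *Meg3* itself was at -0.32 (adjusted p = 0.259). The 5 kept their calls in all 21 alternative settings. Of 22 genes of RNA splicing and cold response, 3 were called in pyramidal neurons, beside 21.3% of all genes called in either direction. *Srsf7*, a splicing factor, was at 44.9 and 51.7 CPM in cohort 1 and 218 and 136 CPM in cohort 2 (log2 difference 1.84 ± 0.24 (SE), adjusted p = 0.0144). It was higher in inhibitory neurons (1.87) and astrocytes (1.91) too. The others called were *Tra2a* at 0.56 (adjusted p = 0.039) and *Rbm25* at -0.62 (adjusted p = 0.048). The background ratios of *Srsf7* were 1.84 and 2.36.

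**Figure D4:**
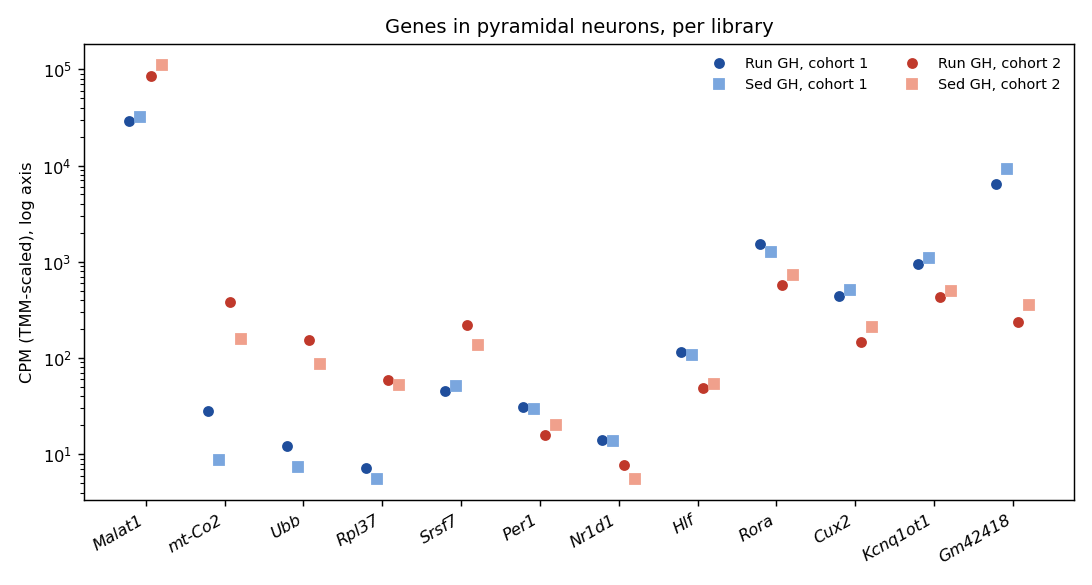
CPM (log axis) of 12 genes in pyramidal neurons in the 4 GH libraries. Points are libraries, coloured by cohort and shaped by maternal environment. *Malat1*, *mt-Co2*, *Ubb*, *Rpl37* and *Srsf7* are higher in both cohort 2 libraries, and *Per1*, *Nr1d1*, *Hlf*, *Rora*, *Cux2*, *Kcnq1ot1* and *Gm42418* lower in both.

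A minority of clock genes was lower in neurons of cohort 2. Of the list, 7 of 21 genes fell in pyramidal neurons (median -0.39 beside 0.00 over all genes, which itself rose by 0.15 with library totals), 9 of 21 in layer 2/3 neurons, 6 of 21 in inhibitory neurons (median -0.38) and 4 of 18 in PV interneurons. Over all genes tested, 8.9, 14.9, 9.37 and 10.2% were called lower in these classes. In layer 6 neurons 3 of 21 fell and 1 was higher, beside 8.5 and 11.6% of all genes, and the fits with library totals, with thinned nuclei and after background subtraction each called 2 lower and 1 higher. DESeq2 called 8, 4, 1 and 1 in the first 4 classes and 2 in layer 6 neurons. The list had background medians of -0.08 and 0.35. The promoters of 3 of the genes that fell in pyramidal neurons are shown because the clock acts there on known sequences. They are RefSeq windows (GRCm38.p6) of 250 bases before to 50 after a start, 5′ to 3′ on the gene's strand, with capitals marking an E-box (CACGTG) or a cAMP response element (CRE, TGACGTCA).
Per1 (chr11:69098699-69098998, + strand): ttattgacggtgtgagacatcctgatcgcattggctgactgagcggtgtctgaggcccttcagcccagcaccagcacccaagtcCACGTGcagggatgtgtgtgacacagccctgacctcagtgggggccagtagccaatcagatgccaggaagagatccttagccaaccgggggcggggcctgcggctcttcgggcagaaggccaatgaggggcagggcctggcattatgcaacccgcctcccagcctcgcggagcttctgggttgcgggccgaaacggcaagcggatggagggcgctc
Hlf (chr11:90390868-90391167, - strand): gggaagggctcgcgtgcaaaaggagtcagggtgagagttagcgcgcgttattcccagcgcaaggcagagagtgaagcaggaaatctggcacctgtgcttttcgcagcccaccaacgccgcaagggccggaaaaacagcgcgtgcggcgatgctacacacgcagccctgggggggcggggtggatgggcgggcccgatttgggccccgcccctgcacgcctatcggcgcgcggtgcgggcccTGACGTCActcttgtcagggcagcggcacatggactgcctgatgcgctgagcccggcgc
Nr1d1 (chr11:98775328-98775627, - strand): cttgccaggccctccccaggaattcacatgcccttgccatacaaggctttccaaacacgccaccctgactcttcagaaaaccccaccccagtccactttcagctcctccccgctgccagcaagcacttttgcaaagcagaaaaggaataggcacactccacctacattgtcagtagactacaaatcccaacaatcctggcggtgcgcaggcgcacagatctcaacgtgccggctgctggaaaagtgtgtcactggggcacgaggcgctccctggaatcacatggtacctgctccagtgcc
The *Per1* window shown holds 1 E-box, the *Hlf* window 1 CRE, and the *Nr1d1* window neither of these letters. Windows matched 18 of the 21 clock genes. Of the 7 called lower, 1 had an E-box (*Per1*, whose other window had none) and 1 a CRE, and of the 11 not called, 4 had an E-box (*Bhlhe41*, *Ciart*, *Cry1* and *Tef*). Of all 32851 windows searched on both strands, 7.15% held the E-box and 1.79% the CRE, and the matches are a description only.

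In pyramidal neurons the repressor *Per1* was at 31.0 and 29.6 CPM in Run GH and Sed GH of cohort 1 and 15.8 and 20.01 CPM in those of cohort 2 (log2 difference -0.77 ± 0.18 (SE), adjusted p = 0.0421), without overlap. *Per2* was at 42.1 and 36.1 CPM in cohort 1 and 29.2 and 30.6 CPM in cohort 2 (log2 difference -0.39, adjusted p = 0.138). *Cry2* was at -0.59 (adjusted p = 0.0526) in pyramidal neurons and fell in inhibitory neurons (log2 difference -0.67 ± 0.18 (SE), adjusted p = 0.0339). In pyramidal neurons the nuclear receptor *Nr1d1* was at 13.9 (Run GH) and 13.8 (Sed GH) CPM in cohort 1 against 7.74 and 5.49 CPM in cohort 2 (log2 difference -1.07 ± 0.23 (SE), adjusted p = 0.0345), so that both cohort 2 libraries lay under both of cohort 1. In inhibitory neurons it was at 13.0 and 8.32 CPM in cohort 1 and 4.71 and 1.03 CPM in cohort 2 (log2 difference -1.74 ± 0.48 (SE), adjusted p = 0.0375), from 103 counts in all, 1 of them in Sed GH of cohort 2. In fits without the pairing it was at -1.52 (adjusted p = 0.0344) with all 4 libraries, -1.23 (adjusted p = 0.0427) without Sed GH of cohort 2 and -1.19 (adjusted p = 0.241) without Run GH of cohort 1, and by DESeq2 the adjusted p was 0.207. In pyramidal neurons its paralogue *Nr1d2* was at 53.0 and 51.2 CPM in cohort 1 and 33.3 and 29.7 CPM in cohort 2 (log2 difference -0.73 ± 0.14 (SE), adjusted p = 0.0291). The opposing receptor *Rora* was at 1525 and 1249 CPM in cohort 1 and 571 and 723 CPM in cohort 2 (log2 difference -1.10 ± 0.20 (SE), adjusted p = 0.0238). The highest cohort 2 value lay under the lowest cohort 1 value for both. *Csnk1e*, a kinase that marks PER for decay, was at 35.2 and 41.6 CPM in cohort 1 and 23.7 and 16.3 CPM in cohort 2 (log2 difference -0.95 ± 0.23 (SE), adjusted p = 0.0464).

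In pyramidal neurons the output factor *Hlf*, a PAR-domain activator, was at 116 (Run GH) and 107 (Sed GH) CPM in cohort 1 against 48.7 and 54.2 CPM in cohort 2 (log2 difference -1.11 ± 0.14 (SE), adjusted p = 0.0143). In inhibitory neurons it was at 53.3 and 44.5 CPM in cohort 1 and 25.8 and 27.7 CPM in cohort 2 (log2 difference -0.90 ± 0.22 (SE), adjusted p = 0.0251). Neither class had an overlap between cohorts. Its relatives *Dbp* and *Tef* were at -0.10 (adjusted p = 0.775) and -0.44 (adjusted p = 0.0722) in pyramidal neurons. Of the activators, *Npas2* fell in pyramidal neurons (log2 difference -0.54 ± 0.14 (SE), adjusted p = 0.0496), while *Arntl* was at -0.49 (adjusted p = 0.064) and *Clock* at 0.27 (adjusted p = 0.169). In the background droplets *Nr1d1* differed by 0.67 in the Run pair and 1.18 in the Sed pair and *Csnk1e* by 1.27 and 1.39, opposite to nuclei, *Hlf* by -0.14 and 0.25, and *Rora* by -2.04 and -2.39, in the same direction. After background subtraction 5 of 21 were called lower in pyramidal neurons, *Per1*, *Nr1d1*, *Hlf*, *Rora* and *Csnk1e*. *Hlf* and *Rora* were called in all 21 alternative settings, *Nr1d1* in 18, *Nr1d2* in 17, *Csnk1e* in 16, *Per1* in 13 and *Npas2* in 10. The unpaired fit of all 4 libraries called 10 of 21 lower. Beside it, the same fit called 3 lower without Run GH or Sed GH of cohort 1, 5 without Run GH of cohort 2, and 9 lower and 1 higher without Sed GH of cohort 2. With library totals 2 were called, *Hlf* and *Rora*. Over all genes of pyramidal neurons the share called lower was 11.9% by DESeq2, 4.3% with library totals, 6.72% after background subtraction and 14.7% in the unpaired fit.

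In astrocytes, edgeR called none of 19 clock genes lower (1 had an unadjusted p under 0.05) and DESeq2 called none in either direction, beside 12.4% of all genes called lower by edgeR. *Hlf* was at 229 and 199 CPM in cohort 1 and 197 and 126 CPM in cohort 2 there (log2 difference -0.33, adjusted p = 0.293), *Nr1d2* at -0.06 (adjusted p = 0.886) and *Rora* at -0.12 (adjusted p = 0.584). The 2 members called higher were *Per3* at 116 and 108 CPM in cohort 1 and 213 and 188 CPM in cohort 2 (log2 difference 0.85 ± 0.23 (SE), adjusted p = 0.00182) and *Bhlhe40*, a repressor of clock genes, at 30.5 and 43.3 CPM in cohort 1 and 67.4 and 115 CPM in cohort 2 (log2 difference 1.23 ± 0.36 (SE), adjusted p = 0.00426), 2 of 19 beside 16.2% of all genes. No clock gene was called in oligodendrocytes or microglia by edgeR, where 2 of 10 and 4 of 12 had an unadjusted p under 0.05, or by DESeq2, and of all genes edgeR called 1.02 and 1.66% lower in these classes. The difference between neurons and astrocytes was not tested. The time of day at which nuclei were isolated is not given in the sources used here.

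**Figure D5:**
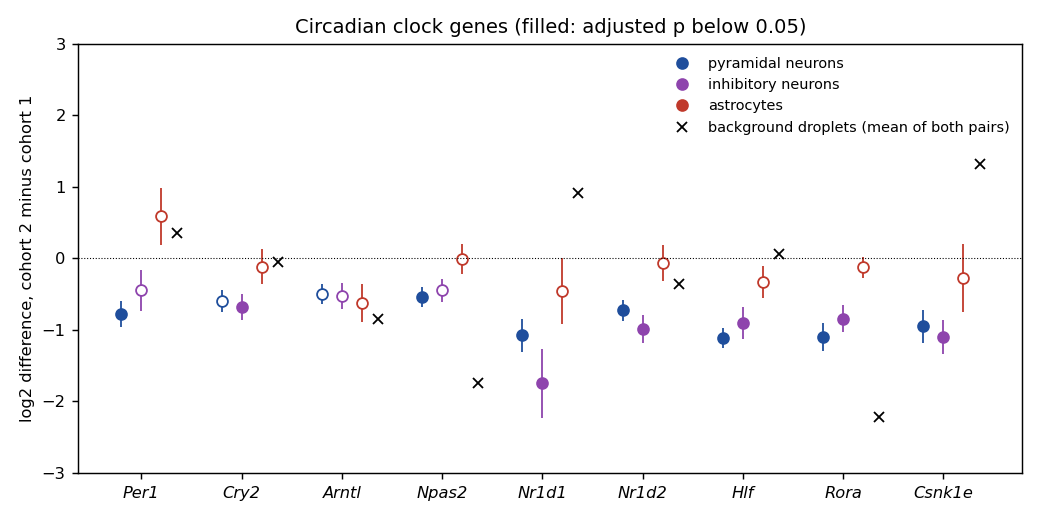
Log2 difference between cohorts (vertical axis) of 9 of the 21 listed clock genes in pyramidal neurons, inhibitory neurons and astrocytes. The 9 were picked by their result, being the 7 called lower in pyramidal neurons with *Cry2* and *Arntl*. The other clock genes are not shown, among them *Per3* and *Bhlhe40*, which were called higher in astrocytes. Circles are the fitted differences with SE bars, filled where the adjusted p was below 0.05, and crosses are the mean log2 ratio of the Run and Sed pairs in background droplets. *Nr1d1* and *Csnk1e* are below 0 in neurons and above 0 in background.

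Of the immediate early genes, 4 of 22 were called higher in pyramidal neurons and 0 lower, beside 12.4 and 8.9% of all genes tested, with a list median of -0.15 and background medians of 1.38 and 2.04. At an unadjusted p under 0.05, 7 were higher and 5 lower, and DESeq2 called 5. In layer 2/3 neurons 3 of 19 were called higher and 3 lower, beside 17.2 and 14.9% of all genes. The AP-1 subunit *Jun* was at 3.03 and 3.15 CPM in cohort 1 and 8.49 and 10.5 CPM in cohort 2 (log2 difference 1.60 ± 0.25 (SE), adjusted p = 0.0184). *Ier5* was at 3.42 and 2.60 CPM in cohort 1 and 12.3 and 9.85 CPM in cohort 2 (log2 difference 1.88 ± 0.23 (SE), adjusted p = 0.0135). *Junb* and *Gadd45b* were higher by 0.92 and 1.53. The classical activity markers did not pass. *Fos* was at 3.72 and 7.50 CPM in cohort 1 and 3.73 and 3.96 CPM in cohort 2 (log2 difference -0.44, adjusted p = 0.365), the highest value being Sed GH of cohort 1. *Npas4*, which depolarisation induces, was at 14.8 and 20.9 CPM in cohort 1 and 10.6 and 11.8 CPM in cohort 2 (log2 difference -0.65, adjusted p = 0.0727), with both cohort 2 libraries under both of cohort 1. *Egr1* was at -0.30 (adjusted p = 0.333), *Arc* at 0.53 (adjusted p = 0.118) and *Nr4a1* at -0.27 (adjusted p = 0.281). The called genes had background ratios of 2.62 and 3.10 (*Jun*), 3.30 and 4.00 (*Ier5*), 2.30 and 2.97 (*Junb*) and 2.54 and 3.67 (*Gadd45b*), and after background subtraction 2 of 21 were called higher, *Jun* and *Ier5*, and 1 lower, *Egr2* (-3.04, adjusted p = 0.0359). The unpaired fit of all 4 libraries called 5 higher and 3 lower. Of all genes, 18.7 and 14.7% were called higher and lower in that fit, and 7.6 and 6.72% after background subtraction.

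Of the later activity-regulated genes, 2 of 14 were called higher in pyramidal neurons, near the 12.4% of all genes tested. *Scg2*, a secretory granule protein, was at 5.13 (Run GH) and 4.25 (Sed GH) CPM in cohort 1 against 18.0 and 20.2 CPM in cohort 2 (log2 difference 2.02 ± 0.22 (SE), adjusted p = 0.0114), with background ratios of 3.25 and 4.27. *Vgf*, a neuropeptide precursor, was at 15.5 and 14.1 CPM in cohort 1 and 28.6 and 24.3 CPM in cohort 2 (log2 difference 0.84 ± 0.17 (SE), adjusted p = 0.029). *Bdnf*, the neurotrophin, was at 0.44 (adjusted p = 0.217) and *Homer1*, a scaffold of metabotropic receptors, at 0.17 (adjusted p = 0.691) in pyramidal neurons, while *Homer1* fell in inhibitory neurons (log2 difference -0.65 ± 0.18 (SE), adjusted p = 0.0374).

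Of 17 glucocorticoid-responsive genes, 2 were called higher and 1 lower in pyramidal neurons (median 0.23), beside 12.4 and 8.9% of all genes tested, and DESeq2 called 3. The shares were higher in other classes. In layer 2/3 neurons 4 of 13 were higher and 4 lower, beside 17.2 and 14.9% of all genes, and DESeq2 called 3 in either direction. The 4 higher were *Mt1* (3.59), *Nfkbia* (2.17), *Cdkn1a* (1.48) and *Errfi1* (1.18), and the 4 lower *Zbtb16* (-1.72), *Fkbp5* (-0.67), *Sgk1* (-0.56) and the mineralocorticoid receptor gene *Nr3c2* (-0.58). With library totals 4 of 13 were higher and 1 lower there, beside 21.7 and 9.56% of all genes. After background subtraction 3 of 12 were higher and 1 lower, beside 10.6 and 10.9%. With thinned nuclei 2 of 7 were higher and 1 lower, beside 18 and 14%. In layer 6 neurons 2 of 8 were higher and 2 lower, beside 11.6 and 8.5%, and DESeq2 called 2. In astrocytes 3 of 12 were higher and 3 lower, beside 16.2 and 12.4%, and DESeq2 called 1. *Zbtb16*, a zinc-finger repressor, fell in pyramidal neurons, at 384 and 371 CPM in cohort 1 and 134 and 206 CPM in cohort 2 (log2 difference -1.18 ± 0.20 (SE), adjusted p = 0.021), and in inhibitory neurons, at 546 and 624 CPM in cohort 1 and 197 and 241 CPM in cohort 2 (log2 difference -1.42 ± 0.15 (SE), adjusted p = 0.00188). It fell by 0.97 in astrocytes and 1.19 in microglia on the log2 scale, and its background ratios were -1.23 and -1.28. *Mt1*, a metallothionein, was higher in pyramidal neurons, at 3.80 and 1.92 CPM in cohort 1 and 33.2 and 24.2 CPM in cohort 2 (log2 difference 3.37 ± 0.23 (SE), adjusted p = 0.00741), with background ratios of 4.55 and 6.12. *Errfi1*, an inhibitor of EGF receptors, was at 11.2 and 10.1 CPM in cohort 1 and 20.3 and 26.2 CPM in cohort 2 (log2 difference 1.11 ± 0.21 (SE), adjusted p = 0.0263), beside background ratios of 0.45 and 0.09. The receptor gene *Nr3c1* was at -0.42 (adjusted p = 0.0939), *Fkbp5* at -0.61 (adjusted p = 0.0531) and *Sgk1* at -0.33 (adjusted p = 0.121) in pyramidal neurons as a whole. The unpaired fit of all 4 libraries called 3 of the 17 higher and 2 lower in pyramidal neurons, beside 18.7 and 14.7% of all genes.

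Most of the receptor and synaptic adhesion genes that were called were lower. Of the glutamate receptor subunits, 7 of 24 fell in pyramidal neurons (median -0.47) and 8 of 23 in inhibitory neurons (-0.45), beside 8.9 and 9.37% of all genes tested. In pyramidal neurons DESeq2 called 12, the fit with library totals 5 lower, and the fit after background subtraction 4 of 23 lower. In layer 2/3 neurons 12 of 23 glutamate receptor subunits fell, beside 14.9% of all genes tested, while the NMDA receptor subunit *Grin2d* was higher (1.29). After background subtraction 6 of 23 were called lower there and 1 higher, beside 10.9 and 10.6% of all genes. Of the GABA-A subunits 2 of 12 fell in layer 2/3 neurons while *Gabrg1* was higher (1.35), beside 14.9 and 17.2% of all genes called lower and higher. With library totals 1 of the 12 was called lower there and 3 higher, beside 9.56 and 21.7% of all genes. The glutamate receptor list had background medians of -0.92 and -1.67. Among the called genes were the kainate receptor subunits *Grik3*, at 346 and 678 CPM in cohort 1 and 205 and 213 CPM in cohort 2 (log2 difference -1.21 ± 0.24 (SE), adjusted p = 0.0299), and *Grik4* and *Grik5*, which fell by 0.97 and 0.98 on the log2 scale. *Grm4*, a presynaptic metabotropic receptor, had the largest fall of the 7, at 28.6 and 39.2 CPM in cohort 1 and 10.8 and 16.5 CPM in cohort 2 (log2 difference -1.33 ± 0.17 (SE), adjusted p = 0.0135), beside background ratios of -0.15 and -0.19, and *Grin2a*, an NMDA receptor subunit, was at -0.63 (adjusted p = 0.0465). The AMPA subunits *Gria1* and *Gria2* were at -0.51 (adjusted p = 0.0601) and 0.05 (adjusted p = 0.802). Of the GABA-A subunits *Gabra5* and *Gabrg3* fell (-0.61 and -0.73), 2 of 12 with a list median of -0.02, beside the same 8.9%, with 2 called by DESeq2 and 1 with library totals. Of 15 neurexins and ligands, *Nrxn2* (log2 difference -0.89 ± 0.13 (SE), adjusted p = 0.0163), *Nlgn2*, the neuroligin of inhibitory synapses (log2 difference -0.85 ± 0.14 (SE), adjusted p = 0.0215), and *Clstn1* (-0.52) fell, 3 in all, beside 7 called by DESeq2 and 2 with library totals. The background ratios were 0.63 and 0.68 for *Nrxn2* and 0.50 and 0.96 for *Nlgn2*, opposite to nuclei, and both fell in inhibitory neurons too (-1.12 and -0.79). The lists are made largely of long genes, and the median of pyramidal neuron genes at 100 to 200 kb was -0.38.

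In astrocytes, 18 of 21 glutamate receptor subunits fell (median -1.14), beside 12.4% of all genes tested. The small p-values in this class rest on the spread shared by genes. The metabotropic receptor *Grm8* was at 346 (Run GH) and 406 (Sed GH) CPM in cohort 1 against 95.8 and 31.4 CPM in cohort 2 (log2 difference -2.15 ± 0.25 (SE), adjusted p = 2.84e-16). *Grin2a* was at 591 and 648 CPM in cohort 1 and 211 and 136 CPM in cohort 2 (log2 difference -1.68 ± 0.21 (SE), adjusted p = 1.98e-14). *Grm5* was at 849 and 787 CPM in cohort 1 and 326 and 178 CPM in cohort 2 (log2 difference -1.59 ± 0.19 (SE), adjusted p = 1.71e-14). Each was lowest in Sed GH of cohort 2. *Grm3*, the metabotropic receptor that astrocytes use, was at 2295 and 2141 CPM in cohort 1 and 1951 and 2071 CPM in cohort 2 (log2 difference -0.15, adjusted p = 0.514), and *Gabrb1*, a GABA-A subunit of astrocytes, at 0.02 (adjusted p = 0.954), whereas *Gabrb2* fell (-1.88). The synaptic adhesion gene *Lrrtm4* had the largest drop of the neurexin list in astrocytes, at 1669 and 1598 CPM in cohort 1 and 293 and 230.1 CPM in cohort 2 (log2 difference -2.60 ± 0.19 (SE), adjusted p = 1.02e-38). The 8 pyramidal neuron markers summed to 1752 and 1656 CPM in astrocytes of cohort 1 and 986 and 711 CPM in those of cohort 2, the 7 inhibitory markers to 742, 793, 493 and 397 CPM, and the 10 astrocyte markers to 11562, 12929.9, 12602 and 13115 CPM, with no marker at 0 in all 4 libraries. The pyramidal and inhibitory sums thus moved in the same direction as the receptor genes, as did those of layer 2/3, PV and VIP markers. Near-projecting markers were lower in both pairs but overlapped between cohorts, at 102 and 77.6 CPM in cohort 1 and 98.6 and 41.8 CPM in cohort 2. Other neuronal lists did not fall in both pairs. Layer 5 markers summed to 1571 and 1502 CPM in cohort 1 and 1685 and 1536 CPM in cohort 2. Striatal projection neuron markers went from 513 and 509 to 1328 and 1630 CPM. NPY and Lamp5 markers rose too, and those of SST and layer 6 differed between the pairs. The part of neuronal RNA in the result was not tested. After background subtraction 4 of 21 receptor subunits were called lower, beside 3.49% of all genes. The unpaired fit of all 4 libraries called 17 of 21 lower, beside 13.2% of all genes. DESeq2 called 10, beside 3.21% of all genes higher and 3.24% lower. The list had background medians of -1.24 and -1.79. Leaving out nuclei under 1000 genes left 63 calls in astrocytes over all genes, where astrocytes were only 0.1135% of nuclei in Sed GH of cohort 2.

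Of 14 genes of astrocyte function and reactivity, 6 were higher in astrocytes of cohort 2 (median 0.52), beside 16.2% of all genes tested, and DESeq2 called 3. After background subtraction 3 of 14 were called higher (median 0.30), beside 4.94% of all genes. *Apoe*, the lipid carrier, was at 142 and 126 CPM in cohort 1 and 773 and 826 CPM in cohort 2 (log2 difference 2.55 ± 0.19 (SE), adjusted p = 3.48e-37), without overlap. *Clu*, a secreted chaperone, was at 63.9 and 54.7 CPM in cohort 1 and 250.03 and 272 CPM in cohort 2 (log2 difference 2.07 ± 0.24 (SE), adjusted p = 6.59e-16). *Glul*, glutamine synthetase, was at 335 and 412 CPM in cohort 1 and 954 and 711 CPM in cohort 2 (log2 difference 1.22 ± 0.18 (SE), adjusted p = 2.00e-10). *S100b* and *Aldoc* were higher by 1.48 and 0.99. The glutamate transporters *Slc1a2* and *Slc1a3* were at -0.05 (adjusted p = 0.859) and 0.25 (adjusted p = 0.217), and the water channel *Aqp4* at 0.54 (adjusted p = 0.107). *Apoe* and *Clu* also differed in background droplets, by 4.39 and 6.14 for *Apoe* and 3.32 and 3.95 for *Clu*. The unpaired fit of all 4 libraries called 7 of 14 of the list higher, beside 17.1% of all genes.

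In microglia, 2 of 11 genes of surveillance and activation were called higher, *Apoe* and *Cst3* (2.72 and 2.01), beside 4.41% of all genes tested, and DESeq2 called 0. After background subtraction 0 of 10 were called (median 0.03), and with thinned nuclei 0 of 6. The fractalkine receptor *Cx3cr1* was at 189 and 145 CPM in cohort 1 and 263 and 186 CPM in cohort 2 (log2 difference 0.43, adjusted p = 0.341). *Csf1r* was at -0.44 (adjusted p = 0.323) and the purinergic receptor *P2ry12* at 0.80 (adjusted p = 0.0962). The microglial markers summed to 1639.7, 1440.5, 1791 and 1439 CPM. The inhibitory neuron markers in the same nuclei summed to 647 and 678 CPM in cohort 1 and 1280.2 and 1642 CPM in cohort 2. Pyramidal markers went the other way, from 3596 and 3663 to 2492 and 3125 CPM, as did those of layer 2/3, from 1019 and 1020 to 450 and 572 CPM. The part of neuronal RNA in the result was not tested. In pyramidal neurons 8 of 19 genes of the microglial list were called higher, beside 12.4% of all genes, with *Apoe* at 10.0 and 5.31 CPM in cohort 1 and 75.1 and 60.9 CPM in cohort 2 (log2 difference 3.20 ± 0.21 (SE), adjusted p = 0.00741), *Cst3* at 3.16 and the complement gene *C1qa* at 3.58. The background ratios of *Cst3* were 4.49 and 5.67 and those of *C1qa* 4.12 and 4.66. The summed microglial markers in pyramidal neurons were 40.9 and 42.6 CPM in cohort 1 and 52.7 and 52.0 CPM in cohort 2.

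In oligodendrocytes, 2 of 18 genes of the myelin list were called lower, *Mobp* and *Myrf*, beside 1.02% of all genes, and DESeq2 called 0 and the fit after background subtraction 0 of 18. At an unadjusted p under 0.05, 1 was higher and 3 lower. *Mobp*, a myelin protein, was at 614 and 1127 CPM in cohort 1 and 318 and 247 CPM in cohort 2 (log2 difference -1.46 ± 0.39 (SE), adjusted p = 0.0336). *Myrf*, the factor of myelination, was at 66.0 and 191 CPM in cohort 1 and 23.3 and 14.5 CPM in cohort 2 (log2 difference -2.05 ± 0.55 (SE), adjusted p = 0.0336), and both were highest in Sed GH of cohort 1. The myelin genes *Mbp* and *Mog* were at -0.39 (adjusted p = 0.621) and 0.53 (adjusted p = 0.513). The oligodendrocyte markers summed to 5569, 9979.7, 5183 and 4878 CPM, so that Sed GH of cohort 1 stood apart in the class's own markers. Neither *Mobp* nor *Myrf* was called when marked doublets were left out (adjusted p = 0.133 and 0.123).

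The genes with the largest differences in pyramidal neurons, among called genes with at least 100 counts, included those of other cells. Haemoglobin genes led, with *Hbb-bs* at 0.546 and 0.377 CPM in cohort 1 and 18.6 and 12.4 CPM in cohort 2 (log2 difference 5.05 ± 0.27 (SE), adjusted p = 0.00741) and background ratios of 6.10 and 6.73. *Hba-a1*, *Hbb-bt* and the microglial adaptor *Tyrobp* differed by 5.49, 4.63 and 4.37, and near-identical globin copies make the single globin genes uncertain. Among the lower genes were *Cdr1*, at 4.44 and 6.27 CPM in cohort 1 and 0.260 and 0.305 CPM in cohort 2 (log2 difference -4.17 ± 0.38 (SE), adjusted p = 0.00954), *Taco1* (-3.82), *Xlr5a* (-2.96) and 4 predicted genes beside *Gm42418* and *AY036118*. *Sox6*, a factor of interneurons, was at 23.4 and 22.3 CPM in cohort 1 and 3.18 and 2.54 CPM in cohort 2 (log2 difference -2.99 ± 0.22 (SE), adjusted p = 0.00741). *Erbb4*, the neuregulin receptor of interneurons, was at 172 and 163 CPM in cohort 1 and 30.8 and 32.4 CPM in cohort 2 (log2 difference -2.41 ± 0.14 (SE), adjusted p = 0.00741), and its log2 difference in PV interneurons was 0.07 (adjusted p = 0.872). The 7 inhibitory markers summed to 208 and 204 CPM in pyramidal neurons of cohort 1 and 71.3 and 71.2 CPM in those of cohort 2, and the 4 haemoglobin genes to 1.23 and 0.756 against 33.9 and 23.1 CPM. Background subtraction, with sums below 0 set to 0, turned *Erbb4* and *Sox6* to 2.34 and 2.61, the opposite direction. In background droplets the inhibitory markers summed to 1224 and 1118 CPM in cohort 1 and 451 and 397 CPM in cohort 2. The median droplet of cohort 1 held 19.8 and 20.1% of the UMIs of the median nucleus. Little of the 208 and 204 CPM may thus be left in cohort 1 to compare. The part of RNA from other cells in these differences was not tested. The predicted genes *Gm2516* and *Gm12027* were higher by 4.41 and 3.68, with background ratios of 0.25 and 0.29 for *Gm2516* and 0.03 and 0.17 for *Gm12027*.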

How the data were processed

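Droplet snRNA-Seq (10x Chromium) had been run on pooled PL nuclei, and the authors deposited raw UMI counts per gene for every barcode, aligned to mm10 with introns included (Cell Ranger 6.0.0 per the labels). From these counts, barcodes were kept with 500 to 4000 genes, at most 1% mitochondrially encoded UMIs and at least 1/10 of the UMIs at the 99th percentile of the library's larger barcodes. This left fewer nuclei than the study states in 3 of the 4 GH libraries and more in Sed GH of cohort 2. Nuclei of all 6 libraries were clustered (scanpy 1.11.5, Pearson residuals, 35 components, Leiden resolution 0.6) and clusters named from markers. Doublets marked by Scrublet were kept, and removed in an alternative. Counts were summed per library and class and tested with edgeR 4.0.16 (quasi-likelihood, TMM, filterByExpr, R 4.3.3) on 4 libraries with cohort and maternal environment as terms, Benjamini-Hochberg adjusted, after tests on simulated data. The pairing comes from the maternal environment in the labels. DESeq2 1.42.0 and other settings, 21 in all, were alternatives. Named genes are members of the 19 lists, the genes with the largest difference among those called with at least 100 counts and 1 direction in both pairs (10 per direction in pyramidal neurons, 5 in others), and up to 10 per direction called in every class. *Cux2*, *Erbb4* and other markers are named as class markers. Some genes under these rules are not reported here. Comparison, members and lists were chosen with earlier results of these data known. Total UMIs per library ranged from 19134955 to 188952936, of which 58.6 and 19.0% lay in kept nuclei, and intervals cover counting error only. The SI libraries entered the clustering and an alternative.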

Additional observations from a re-analysis of the deposited data

Results flagged for a closer look

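Some values moved one way in the Run pair and the other way in the Sed pair, so that the cohort difference changed sign with the maternal environment. With 1 library in each cell of the design the difference between the pairs was not tested. The share of layer 6 neurons changed by 6.62 and -8.33 percentage points (cohort 2 minus cohort 1, Run pair before Sed pair) and the share of layer 2/3 neurons by -2.62 and 3.30 points. In pyramidal neurons, the synaptic scaffold *Homer1* changed by -0.41 and 0.76 on the log2 scale, and *Pcsk1*, a prohormone convertase that is likewise induced by activity, by -0.75 and 0.63. The cold-inducible RNA-binding protein *Cirbp* changed by 0.79 and -0.42 and the splicing factor *Srsf2* by 0.75 and -0.55. *Hif3a*, a glucocorticoid-responsive factor, changed by 0.43 and -0.66, the complex I subunit *Ndufs3* by 0.53 and -0.32, *Filip1l* by -0.52 and 0.69 and the microglial receptor *Cx3cr1*, as read in pyramidal neurons, by -0.49 and 0.83. Each of these 8 listed genes had at least 200 counts and at least 0.3 of opposite change in both pairs.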

How the results depend on the processing

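With all 6 libraries in the fit and housing as a term, the counts of called genes were 6819 in pyramidal neurons, 3982 in layer 6 pyramidal neurons, 4641 in inhibitory neurons, 510 in oligodendrocytes and 939 in microglia. Without the maternal term, that is without the pairing, they were 5824 in pyramidal neurons, 3820 in layer 6 pyramidal neurons and 520 in microglia. DESeq2 on the same sums called 2636 in layer 2/3 pyramidal neurons, 1128 in layer 6 pyramidal neurons, 1208 in inhibitory neurons, 413 in PV interneurons, 436 in astrocytes, 22 in oligodendrocytes and 22 in microglia. With the background profile subtracted the counts were 2414 in pyramidal neurons, 2875 in layer 2/3 pyramidal neurons, 907 in layer 6 pyramidal neurons, 1833 in inhibitory neurons, 619 in PV interneurons, 633 in astrocytes and 14 in oligodendrocytes. With nuclei of at least 1000 genes they were 1487 in layer 6 pyramidal neurons, 63 in astrocytes and 111 in oligodendrocytes. With nuclei thinned to 1000 UMIs they were 847 in PV interneurons, 1086 in astrocytes, 30 in oligodendrocytes and 56 in microglia. Nuclei with fewer UMIs were left out there, 882 of Sed GH of cohort 2 and 0 of the other GH libraries. With as many of the largest barcodes as the study kept they were 523 in oligodendrocytes and 88 in microglia. Without marked doublets they were 1 in oligodendrocytes and 550 in microglia. Microglia, with 315 calls, also moved with other choices, to 537 with RLE size factors, 656 with library totals, 484 with no filter on low counts, 575 with mitochondrial and ribosomal-RNA-overlapping genes left out, 804 with no upper limit on genes, 179 with no mitochondrial limit and 41 with the cohorts clustered apart. Leaving out each library in turn, with the cohort term alone, as in the fit without the pairing, the counts ran from 1723 to 6448 in pyramidal neurons, from 2915 to 5953 in layer 2/3 pyramidal neurons, from 1734 to 4039 in layer 6 pyramidal neurons, from 2008 to 4058 in inhibitory neurons, from 979 to 2703 in PV interneurons, from 652 to 2870 in astrocytes, from 78 to 446 in oligodendrocytes and from 30 to 672 in microglia. Here the lone library of a side was assumed to vary like the pair of the other. Background subtraction, with sums below 0 set to 0, turned the direction of *Erbb4* in pyramidal (2.34), layer 2/3 (1.72) and layer 6 neurons (1.75). It also turned *Sox6* (2.61), *Gm48099* (0.79) and *Grik1* (0.32) in pyramidal neurons and *Adarb2* in PV interneurons (0.76). In astrocytes of at least 1000 genes, which were 0.1135% of nuclei in Sed GH of cohort 2, *Sparcl1* turned to -0.47. The other counts of called genes per class stayed within 1.5 times the value in the report. In the thinned setting 4 of the 7 classes still did not overlap. Nuclei kept their class there, so these shares changed only through the 882 nuclei of Sed GH of cohort 2 left out. The share of higher genes among the calls in astrocytes was 56.6%, but 39.4% with no filter, 98.4% in nuclei of at least 1000 genes and 38.0% without Run GH of cohort 2. Over single named genes and alternatives, 7214 values kept their direction and side of the threshold, 467 lost the call, 63 gained it, 32 moved and 8 reversed. The cause of these changes was not tested. The limits are 2 libraries a side and 1 residual degree of freedom, the depth of Sed GH of cohort 2, and a cohort that carries testing, dataset and depth at once.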

Other observations

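The SI libraries of cohort 2 were not part of the main comparison, and their values in pyramidal neurons, in CPM of plain library totals (Run before Sed), are given as read. The clock output gene *Hlf* was at 108 and 102 CPM in cohort 1, 53.2 and 55.2 CPM in GH of cohort 2 and 67.2 and 59.6 CPM in SI. The clock repressor *Nr1d1* was at 13.0 and 13.3 CPM in cohort 1, 8.46 and 5.58 CPM in GH of cohort 2 and 8.13 and 7.30 CPM in SI. Its opposing receptor *Rora* was at 1426 and 1199 CPM in cohort 1, 624 and 735 CPM in GH of cohort 2 and 656 and 782 CPM in SI. For all 3 genes the SI libraries lay under both libraries of cohort 1. The glucocorticoid target *Zbtb16* was at 359 and 356 CPM in cohort 1, 147 and 209 CPM in GH of cohort 2 and 184 and 213 CPM in SI. The splicing factor *Srsf7* was at 42.0 and 49.6 CPM in cohort 1, 239 and 138 CPM in GH of cohort 2 and 209.9 and 179.9 CPM in SI. *Malat1* was at 27234 and 30542 CPM in cohort 1, 93047 and 113468 CPM in GH of cohort 2 and 93367 and 118127 CPM in SI. With all 6 libraries in the fit, 11 of 21 clock genes and 14 of 24 glutamate receptor subunits were called lower in cohort 2 in pyramidal neurons, beside 17.8% of all genes in that fit, where the SI libraries add to the cohort 2 side alone.

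Some clusters without a name belonged mostly to 1 cohort or 1 library. A cluster led by *Gm42418*, *Gm48099* and mitochondrially encoded genes held 229 and 216 nuclei of Run GH and Sed GH of cohort 1 and 1 nucleus of both cohort 2 libraries together. A cluster led by *Ndst4*, *Abi3bp* and *Tenm3* held 114 nuclei of Run GH of cohort 2 and 3, 2 and 2 of Run GH and Sed GH of cohort 1 and Sed GH of cohort 2.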
